A study of Mus musculus with 3 samples.

Results

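The HoxC and HoxD genes were examined in single cells of the cerebellum of Eed cKO mice. They were chosen by symbol alone, as every row of the count tables named Hoxc or Hoxd and a number. That rule took 12 of the 16181 genes listed: Hoxc4, Hoxc6, Hoxc8, Hoxc9, Hoxc10, Hoxc11, Hoxc12 and Hoxc13, which are 8 HoxC genes, and Hoxd3, Hoxd8, Hoxd9 and Hoxd10, which are 4 HoxD genes. Hoxc5, Hoxd1, Hoxd4, Hoxd11, Hoxd12 and Hoxd13 were not among the genes listed, so they could not be measured. Sums and shares below cover only the genes named.

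The mice were Math1-Cre/Eed fl/fl, and each of 3 gave 1 Drop-seq library at P7, from one side of its cerebellum. In these mice Cre is driven by Atoh1 (Math1) sequences, which in the cerebellum are active in cerebellar granule neuron progenitors (CGNPs), so Eed is deleted in CGNPs and in the granule neurons (CGNs) that they form, and other cerebellar cell types serve as cells outside the Atoh1 lineage. All mice carried the same genotype and were untreated, and no wild-type library was analysed here, so each comparison below is between cell groups within the same mice and none is between genotypes. The replicate is the mouse.

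HOX proteins are homeodomain transcription factors that give cells their position along the body axis. Their genes lie in 4 clusters, HoxA to HoxD, and genes with the same number in different clusters are paralogs descended from 1 ancestral gene. Low numbers lie at the 3′ end of a cluster and are used toward the head, high numbers lie at the 5′ end and are used toward the tail. The cerebellum forms ahead of the region where Hox genes are normally on, and there the clusters are held silent by PRC2, the complex that trimethylates lysine 27 of histone H3 and of which EED is a core subunit.

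In the GRCm38 assembly (GENCODE M21), the HoxC genes measured lie on the plus strand of chromosome 15, from the start of Hoxc13 at 102921103 to the end of Hoxc4 at 103036852. The HoxD genes measured lie on the plus strand of chromosome 2, from Hoxd10 at 74691924 to the end of Hoxd3 at 74748442. Hoxd3 shares exon bases with Hoxd4 on the same strand and with Hoxd3os1 and Haglr on the opposite strand, Hoxc10 with Hoxc5, and Hoxd10 with Gm28309, both on the same strand. Whether reads were counted by strand is not given in the sources used here, so the counts of Hoxd3, Hoxc10 and Hoxd10 may hold reads of those neighbors. The 250 bases before the start of Hoxd10 and of Hoxd8 are shown because, of the 5 genes in the sequence table, they held the most and the fewest CpG, the dinucleotide that marks many PRC2 target promoters. The sequences are from RefSeq on GRCm38.p6, 5′ to 3′ on the plus strand, with each CG in capitals. RefSeq's table held 5 of the 12 genes.
Hoxd10, chr2:74691641-74691890: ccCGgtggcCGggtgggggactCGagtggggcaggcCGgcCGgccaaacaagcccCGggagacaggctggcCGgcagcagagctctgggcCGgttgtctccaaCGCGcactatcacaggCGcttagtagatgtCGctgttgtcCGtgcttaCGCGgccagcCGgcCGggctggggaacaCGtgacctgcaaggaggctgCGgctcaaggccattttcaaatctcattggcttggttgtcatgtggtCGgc
Hoxd8, chr2:74704365-74704614: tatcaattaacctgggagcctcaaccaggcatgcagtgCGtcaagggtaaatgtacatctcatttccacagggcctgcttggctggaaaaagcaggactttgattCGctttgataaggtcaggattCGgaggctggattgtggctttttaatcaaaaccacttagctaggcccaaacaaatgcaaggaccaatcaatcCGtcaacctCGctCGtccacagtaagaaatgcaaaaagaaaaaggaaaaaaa
The Hoxd10 sequence held 20 CG and the Hoxd8 sequence 6, with 13 for Hoxd9, 12 for Hoxd3 and 8 for Hoxc4, whose windows overlap exons, against a median of 6 over the 32817 promoters in the table. At least 1 CG was found in 92.1% of them. The E-box CAGCTG, a palindrome and so searched on both strands at once, was in neither sequence and was in 13.0% of all promoters.

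The libraries held 3481 barcodes, none shared between libraries. After filtering, 2373 cells remained, 547 to 918 per mouse, with 540816 to 1536645 UMIs and a median of 857 to 1408 UMIs per cell. Mouse 3 was the deepest. Cells were named from marker genes as proliferating CGNP-like (647 cells), differentiating CGNP/CGN-like (527), muscle-like (81, with all 18 markers of the myoid list detected), and 8 types outside the lineage (941 cells together). A further cluster of 177 cells, with 9 markers of differentiating CGNPs and 4 of Purkinje cells, stayed unnamed. The reason was that its 10 leading genes held more Purkinje markers (Syt4, Pcp4 and Calb1) than differentiating CGNP markers (Mapt and Camk4). Mouse 3 gave 124 cells of this cluster. Eed, the targeted gene, had 30.4, 14.1 and 22.4 CPM (UMIs per 1000000 UMIs) in the granule lineage of mice 1, 2 and 3, which is proliferating and differentiating cells together, and 69.7, 79.4 and 45.3 CPM in cells outside the lineage (log2 fold change -1.35, SE 0.37, edgeR quasi-likelihood test, adjusted p = 0.0227). Drop-seq reads the 3′ end of a transcript, and whether the deleted part of Eed covers it is not given in the sources used here, so this level is no check of the deletion. Hbb-bs, a hemoglobin gene, led 1 of the clusters named proliferating CGNP-like. The 4 erythroid markers measured summed to 2859, 383 and 4621 CPM in proliferating cells of mice 1, 2 and 3, to 1789, 1367 and 136 CPM in differentiating cells, to 246, 343 and 106 CPM in muscle-like cells and to 271, 6292 and 151 CPM outside the lineage, where mouse 2 stood apart. Their part in the results was not tested. Most counts behind these values are small, so levels of single genes are given with their UMIs.

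The 12 genes together had 689 UMIs in the filtered cells, 178, 125 and 386 in mice 1, 2 and 3. HoxC genes had 572 of them and HoxD genes 117. Hoxc9, a gene of the paralog group used at thoracic levels, had 278 UMIs, and no other gene had more than the 66 of Hoxc4. Hoxd10 had the fewest, 16. These numbers are UMIs and not corrected for gene length, but libraries of this kind capture the 3′ end of each transcript.

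HoxC and HoxD genes differed in where they were found. The summed HoxC level was highest among named cell types in differentiating CGNP/CGN-like cells, at 450, 518 and 464 CPM in mice 1, 2 and 3. It was 70.9, 108 and 107 CPM in proliferating CGNP-like cells and 0, 85.7 and 164 CPM in muscle-like cells. The lowest differentiating value lay above every value of the other named types. Proliferating and muscle-like cells overlapped each other and also overlapped interneuron-like cells (82.3, 73.1 and 8.95 CPM, from 7, 3 and 2 UMIs). They overlapped pericyte-like cells too (99.6, 0 and 65.4 CPM), but those values were 1 UMI each in mice 1 and 3. The remaining types had means of 0 to 28.2 CPM, on at most 5 UMIs each, and their order could not be told at this depth. For the summed HoxD level the order was different: muscle-like cells had 123, 129 and 317 CPM, differentiating cells 56.9, 52.6 and 86.3 CPM, and proliferating cells 10.9, 36.1 and 26.6 CPM. These 3 groups did not overlap, but without the highest muscle-like cell of each mouse the muscle-like levels were 79.4, 92.6 and 186 CPM and mouse 1 fell within the range of differentiating cells. Outside the lineage, HoxD genes had 6 UMIs in all, or 13.9, 6.62 and 0 CPM.

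**Figure D1:**
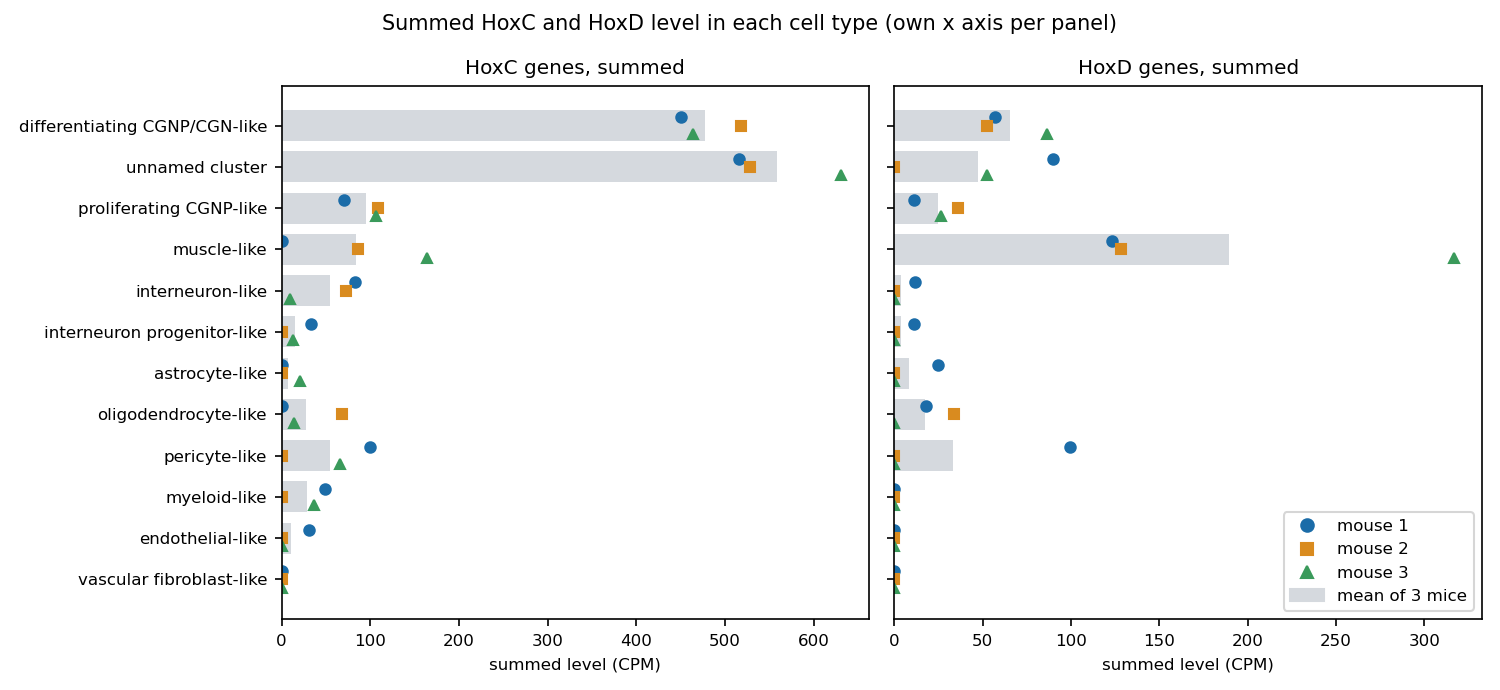
Summed level in CPM (x axis) of the 8 HoxC genes (left) and 4 HoxD genes (right) in each cell type (y axis), with 1 point per mouse and bars at the mean of 3 mice. HoxC genes were highest in differentiating CGNP/CGN-like cells and the unnamed cluster, HoxD genes in muscle-like cells, where mouse 3 stands at 317 CPM and the other mice at 123 and 129.

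For HoxD genes the contrast was also seen as a share of all Hox UMIs. That measure does not change with the total RNA of a cell, but it does change with the HoxA and HoxB levels. HoxA genes (9 measured) and HoxB genes (9 measured) made up most Hox UMIs of the granule lineage, 48.8% and 30.2% over all mice. In muscle-like cells they made up 19.7% and 13.2%. In differentiating cells HoxC genes held 17.2%, 19.3% and 16.03% of the Hox UMIs of mice 1, 2 and 3, and HoxD genes 2.17%, 1.96% and 2.98%. In proliferating cells the HoxD share was 2.65%, 6.90% and 6.29%. In muscle-like cells it was 45.5%, 37.5% and 47.4%, and the lowest of these lay above the highest share in any mouse of the groups plotted with them. The muscle-like shares rested on 11, 8 and 57 Hox UMIs. The 35 HoxD UMIs of 76 in all gave 46.1% with an exact (Clopper-Pearson) 95% interval of 34.5% to 57.9%. A single cell of mouse 3 held 12 of these 35 UMIs. The interval for the granule lineage, 60 of 1978 UMIs, was 2.32% to 3.89%. All intervals and limits given here cover counting error only.

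**Figure D2:**
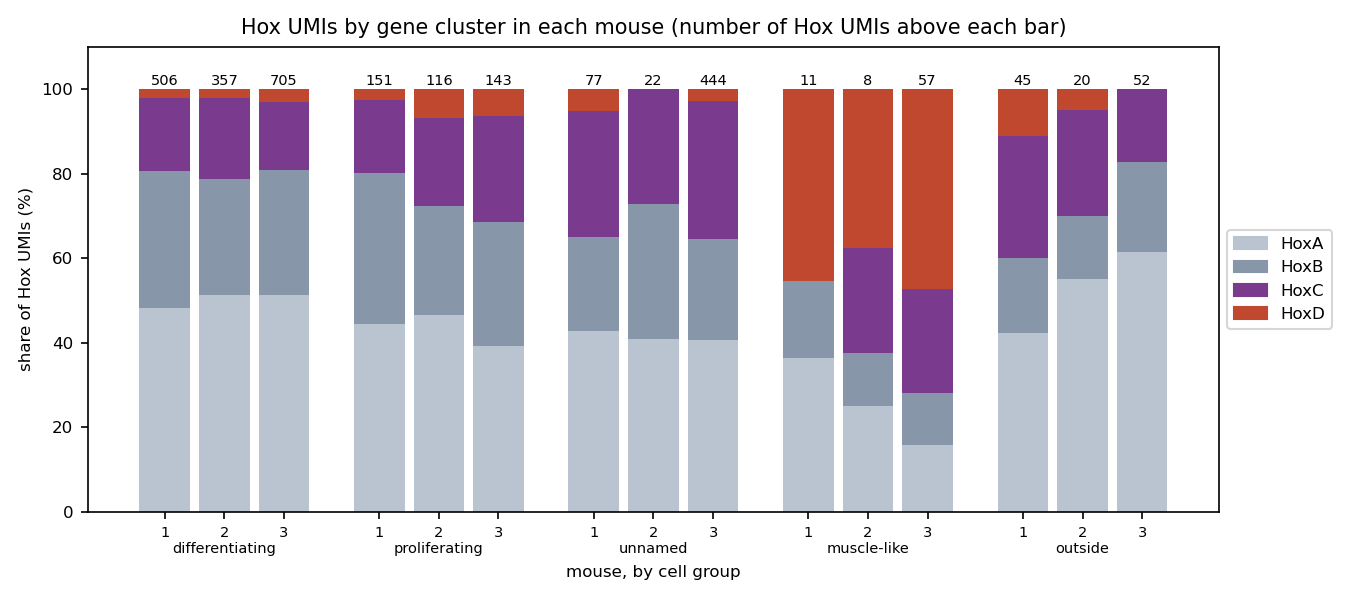
Share of Hox UMIs (y axis, percent) that fell in each of the 4 gene clusters, as stacked bars for each mouse and cell group (x axis), with the number of Hox UMIs above each bar. HoxD genes made up 37.5% to 47.4% in muscle-like cells and at most 11.1% in the other bars.

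Within the granule lineage, differentiating cells were compared with proliferating CGNPs, 2 stages of the same lineage. Of 11 genes with at least 10 UMIs over the 6 sums, 7 were higher in differentiating cells and 0 lower (edgeR quasi-likelihood test, adjusted p under 0.05 over 10816 genes). None was lower at an unadjusted p under 0.05 or by DESeq2 either. Apart from Hoxc9 the called genes had 1 to 6 UMIs in proliferating cells and passed the filter only through the differentiating cells where they were high, so the count and the median over the 11 genes are descriptions. With no filter on low counts 7 genes were called as well. Over all genes tested, 7.17% were higher and 8.18% lower, and the median log2 fold change was 2.28 for the 11 genes and -0.04 for all genes. The genes that rose were Hoxc6, Hoxc8, Hoxc9, Hoxc11, Hoxc12, Hoxc13 and Hoxd3, so 6 of 8 HoxC genes and 1 of 4 HoxD genes passed.

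Hoxc9 had 222, 300 and 259 CPM in the differentiating cells of mice 1, 2 and 3, from 43, 40 and 63 UMIs, and 27.3, 67.6 and 53.3 CPM in proliferating cells. Every differentiating value lay far above every proliferating one. The log2 fold change was 2.39 (SE 0.30, adjusted p = 3.95e-07). Hoxc9 held 49.4%, 58.0% and 55.8% of the HoxC UMIs of differentiating cells, the largest part in each mouse.

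The 5′ genes Hoxc11, Hoxc12 and Hoxc13, whose paralog groups pattern the lower trunk, limbs, tail and hair, had 1 to 4 UMIs each in proliferating cells. Hoxc13 had 36.2, 22.5 and 28.8 CPM in differentiating cells and 0, 0 and 2.96 CPM in proliferating cells, or 17 UMIs against 1 (log2 fold change 4.21, SE 0.97, adjusted p = 0.00206). The groups did not overlap, and in this fit Hoxc13 had the largest change of the 11 genes tested. Over 10 alternative settings each, the log2 fold change of Hoxc13 ran from 3.52 to 5.80 and that of Hoxc12 from 3.49 to 6.13. Their order is therefore not read as fixed. Hoxc12 had 20.7, 75.1 and 12.3 CPM against 5.46, 0 and 0 (3.57, SE 0.96, adjusted p = 0.00872), with 5 of its 17 UMIs in a single cell. Hoxc11 had 51.7, 22.5 and 20.5 CPM against 5.46, 4.51 and 2.96 (2.69, SE 0.75, adjusted p = 0.0116). In both genes every differentiating value lay above every proliferating value, by a wide margin in Hoxc11.

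Among the middle genes, Hoxc6, which takes part in patterning the upper thorax, had 25.9, 22.5 and 32.9 CPM in differentiating cells and 2.73, 0 and 2.96 CPM in proliferating cells (log2 fold change 3.38, SE 0.88, adjusted p = 0.00630). Its groups were well apart. Hoxc8, a thoracic patterning gene, was uneven, with 51.7, 7.51 and 37.0 CPM against 5.46, 4.51 and 8.88 (2.28, SE 0.70, adjusted p = 0.0224). Mouse 2 had 1 Hoxc8 UMI in each group and its differentiating value overlapped the proliferating ones. Hoxd3, a gene of the neck and hindbrain, had 25.9, 30.05 and 45.2 CPM against 5.46, 13.5 and 2.96 (2.27, SE 0.68, adjusted p = 0.0190), with no overlap.

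The 4 genes that were tested and not called had smaller or less precise differences. Hoxc4, a cervical gene, had 31.0, 60.1 and 61.6 CPM in differentiating and 19.1, 18.0 and 29.6 CPM in proliferating cells, and the log2 fold change of 1.11 (SE 0.47) had an adjusted p of 0.116. It was the HoxC gene with the second highest level in proliferating cells, after Hoxc9. Hoxd8 (1.92, SE 1.004), Hoxd9 (0.71, SE 0.89) and Hoxc10 (0.37, SE 0.89) had 8, 9 and 6 UMIs in differentiating cells and adjusted p from 0.218 to 0.845. Hoxd10 had 2 and 4 UMIs and was not tested.

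The number of calls varied with the test. DESeq2's Wald test, which gave an adjusted p for 5 of the 11 genes, called 2 of them, and without mouse 1 or mouse 3 the number was 3 and 4. Hoxc8 and Hoxd3 were each no longer called in 4 of their 12 alternative settings, with adjusted p up to 0.273 and 0.275. Hoxc11 and Hoxc13 were each no longer called in 1 of 10. The direction of the 7 genes was the same in every setting in which they could be tested.

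**Figure D3:**
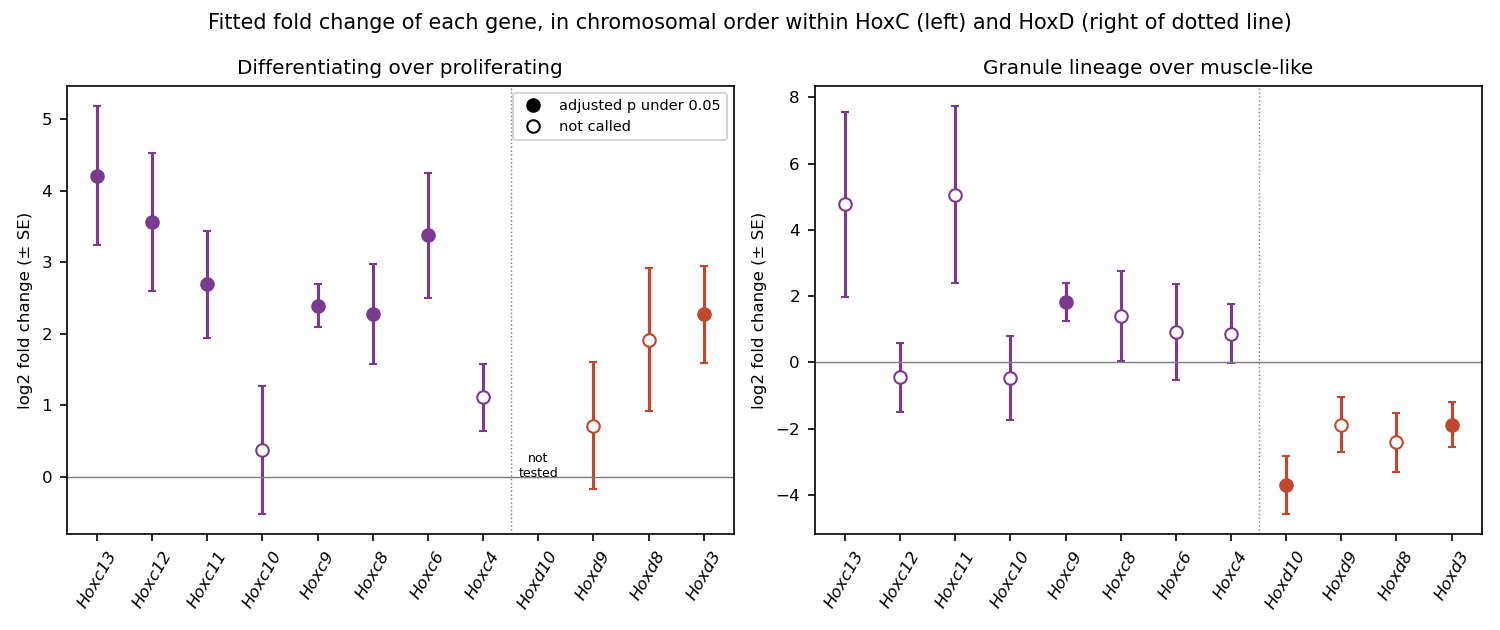
Log2 fold change with its SE (y axis) of each gene in chromosomal order (x axis, HoxC then HoxD), for differentiating over proliferating cells (left) and the granule lineage over muscle-like cells (right), filled where the adjusted p was under 0.05. All 4 HoxD genes lie below 0 on the right, whereas Hoxc11 and Hoxc13 had no UMI in muscle-like cells, so the size of their fitted values there depends on a prior count.

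Hoxc9 was found in 16.5%, 17.3% and 23.4% of differentiating cells of mice 1, 2 and 3 and in 3.09%, 5.50% and 8.97% of proliferating cells. In cells outside the lineage, which serve as the measure of free RNA, the shares were 1.12%, 1.90% and 0.703%, with median depths of 899, 1160 and 965 UMIs per cell in the 3 groups. Proliferating cells were thus the deepest and still had fewer cells with Hoxc9 than differentiating cells. After each cell was thinned to 500 UMIs the mean shares were 10.4% ± 1.47 (SD, n = 3), 1.70% ± 0.79 and 0.265% ± 0.28. With at least 1000 UMIs per cell the cells were clustered again, which gave 137 differentiating and 455 proliferating cells. There Hoxc4 was in 3.48% of differentiating and 5.45% of proliferating cells, Hoxc10 in 0.450% and 0.918%, and Hoxd9 in 1.23% and 2.46%. That goes against the order of their CPM in the larger groups used above, so no order is read from these shares. For the other 11 genes the mean share in the granule lineage ranged from 0.425% for Hoxd10 to 3.96% for Hoxc4, and in cells outside the lineage from 0% to 0.398%. Hoxc10 and Hoxd10 were in 0 of 941 cells outside the lineage, which allows a share of cells with a UMI of up to 0.319% and sets no limit on cells that express the gene.

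At least 1 of the 12 genes was found in 185 of 527 differentiating cells (35.1%), 76 of 647 proliferating cells (11.7%) and 26 of 941 cells outside the lineage (2.76%). At least 2 of the genes were found together in 39, 17 and 3 of these cells, and no cell of these groups had more than 4. HoxA or HoxB UMIs were often in the same cells. With cells thinned to 500 UMIs, 33.3%, 33.3% and 22.2% of proliferating cells with a HoxC or HoxD UMI also had a HoxA or HoxB UMI in mice 1, 2 and 3, against 12.2%, 12.6% and 10.9% of those without, although only 12, 9 and 9 cells were positive. In differentiating cells the values were 70.0%, 51.6% and 77.1% against 44.4%, 56.0% and 59.6%, so mouse 2 went the other way. Thinning fixes the number of UMIs per cell, and what else the cells share was not tested.

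**Figure D4:**
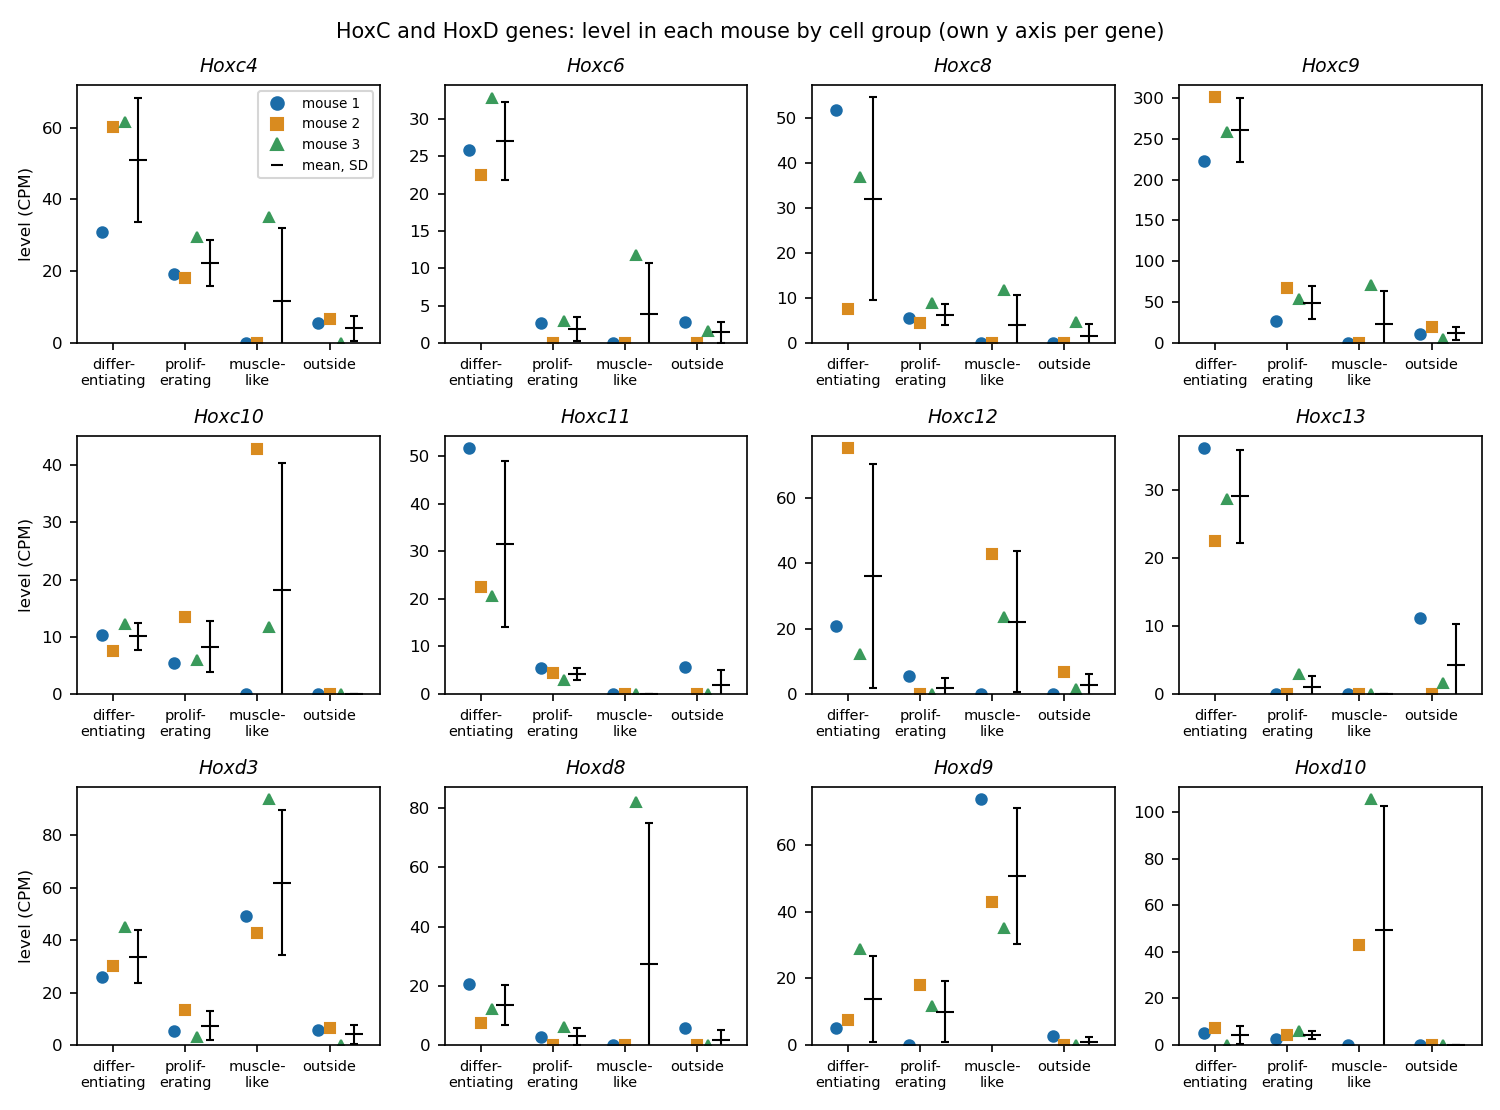
Level in CPM (y axis, its own scale for each gene) of the 12 genes in 4 cell groups (x axis), with 1 point per mouse and the mean with its SD as a black line, cut at 0. Most HoxC genes are highest in differentiating cells and all 4 HoxD genes have their highest mean in muscle-like cells, in Hoxd8 from mouse 3 alone.

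The granule lineage as a whole was then set against cells outside the lineage, in which Eed is not expected to be deleted. Of 11 genes tested, 2 were higher in the granule lineage and 0 lower (12936 genes tested, of which 2.91% were higher and 7.22% lower), and 9 had an unadjusted p under 0.05, all of them higher. DESeq2 called 2 higher and 0 lower. Hoxc9 had 10 UMIs outside the lineage and the other tested genes 0 to 5, so those passed the filter only through the granule lineage and the count is a description. The median log2 fold change was 2.79 for the 11 genes and 0.01 for all genes. Both sums of a mouse come from 1 library, and with the mouse kept as a block 8 of the 11 were higher: Hoxc4, Hoxc6, Hoxc8, Hoxc9, Hoxc10, Hoxc11, Hoxd3 and Hoxd9. Hoxd9 had 1.79, 14.1 and 18.9 CPM in the granule lineage and 2.79, 0 and 0 CPM outside it, so it was higher in 2 of 3 mice.

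Hoxc9 had 94.7, 155 and 139 CPM in the granule lineage and 11.2, 19.8 and 4.68 CPM outside it (log2 fold change 3.85, SE 0.41, adjusted p = 1.87e-06). The groups were far apart in all mice. Hoxc4 had 23.2, 33.8 and 43.0 CPM against 5.58, 6.62 and 0 (3.53, SE 0.72, adjusted p = 0.00220), also with no overlap. Without mouse 3 the log2 fold change of Hoxc4 was 2.22 and its adjusted p 0.0966, and Hoxc9 alone was called.

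Of the genes that were not called without the block, Hoxc10 had 7.14, 11.3 and 8.60 CPM in the granule lineage and 0 UMIs outside it, which is at least 3.33-fold higher against a floor of 3 UMIs over the group, and the exact 95% interval of the ratio starts at 2.34. Hoxd10 had 6 UMIs against 0 and was not tested. The exact 95% interval of that ratio starts at 0.905, so a difference was not detectable. Hoxc13 had the smallest separation of the tested genes, 12.5, 8.45 and 13.8 CPM against 11.2, 0 and 1.56 CPM (1.38, SE 0.85, adjusted p = 0.393). Outside the lineage 4 of its 5 UMIs came from a single cell of mouse 1. The remaining HoxC genes had 2 or 3 UMIs outside the lineage and 18 to 26 inside it.

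The unnamed cluster had summed HoxC levels of 515, 528 and 631 CPM in mice 1, 2 and 3, against 450, 518 and 464 CPM in differentiating cells. Those of the cluster came from 23, 6 and 145 UMIs, with 10 cells in mouse 2. Its summed HoxD levels were 89.6, 0 and 52.2 CPM, from 4, 0 and 12 UMIs. When clusters were made coarser or finer, at resolution 0.4 or 1.2, all 177 of its cells fell in clusters named as differentiating CGNP/CGN-like. With no upper limit on cell depth 158 of them stayed unnamed, and with at least 1000 UMIs per cell 121 did and 55 were not kept. Counted as differentiating, the number of genes higher in the granule lineage than outside it was 8 of 11 in place of 2.

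Muscle-like cells carry the RNAs of sarcomere proteins, which cerebellar cells do not normally make. Against them, Hoxc9 was higher in the granule lineage and Hoxd10 and Hoxd3 were lower, 3 of 12 genes tested. Hoxc9 and Hoxd10 reached the filter only through the group where they were high, so the count is a description. DESeq2, which gave an adjusted p for 7 genes, called 0 higher and 2 lower. Among 11191 genes 6.84% were higher and 3.71% lower in the granule lineage, and the median log2 fold change was 0.21 for the 12 genes and 0.46 for all genes. All 4 HoxD genes had a negative fold change and an unadjusted p under 0.05, whereas 1 of 8 HoxC genes, Hoxc9, had such a p and a positive fold change.

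Hoxd10, whose paralog group patterns the lumbar spinal cord and hindlimb, had 0, 42.9 and 106 CPM in the muscle-like cells of mice 1, 2 and 3, from 0, 1 and 9 UMIs, and 3.57, 5.63 and 3.44 CPM in the granule lineage. The groups overlapped through mouse 1. The log2 fold change was -3.70 (SE 0.87, adjusted p = 0.000524). A single cell of mouse 3 held 6 of the 10 muscle-like UMIs, and without it the adjusted p was 0.177 at a log2 fold change of -2.48.

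Hoxd3 had 49.2, 42.9 and 93.9 CPM in muscle-like cells, from 2, 1 and 8 UMIs in 8 cells, and 12.5, 19.7 and 20.6 CPM in the granule lineage. Every muscle-like value was higher. The log2 fold change was -1.89 (SE 0.68, adjusted p = 0.0495), near the threshold. With the mouse as a block the log2 fold change was -1.81 and the adjusted p 0.133, and without mouse 3 they were -1.31 and 0.545. Over its 13 alternative settings the adjusted p ran from 0.0382 to 0.545 and Hoxd3 was no longer called in 10. Hoxd9, a gene of the thoracic and limb levels, had 73.8, 42.9 and 35.2 CPM, from 7 UMIs in 7 cells, against 1.79, 14.1 and 18.9 CPM. It did not overlap either, and its adjusted p was 0.143 (-1.88, SE 0.83). Without mouse 1 its log2 fold change was -0.95 and without mouse 3 it was -2.85. Hoxd8, a trunk gene, had all of its 7 muscle-like UMIs in 2 cells of mouse 3, 5 of them in the cell that also held 6 Hoxd10 UMIs (-2.41, SE 0.89, adjusted p = 0.0603). Without that cell the log2 fold change of Hoxd8 was -0.73 and its adjusted p 0.814, whereas Hoxd8 was called without mouse 1 (adjusted p = 0.0453), with at least 1000 UMIs per cell (0.0249) and with no upper limit on cell depth (0.00184). Hence Hoxd3 and Hoxd9 were seen in the muscle-like cells of all 3 mice, Hoxd10 in 2 and Hoxd8 in 1.

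For HoxC the positive difference rested on Hoxc9, with 0, 0 and 6 UMIs in muscle-like cells, or 0, 0 and 70.4 CPM, below each granule value (log2 fold change 1.82, SE 0.57, adjusted p = 0.0179). Without mouse 1 its log2 fold change was 1.58 (adjusted p = 0.123) and without mouse 2 it was 1.35 (0.198). Without mouse 3, which held all 6 muscle-like UMIs, Hoxc9 was called (adjusted p = 0.00389), with a fitted log2 fold change of 7.93 that depends on a prior count. Hoxc11 and Hoxc13 had no UMI in muscle-like cells, but 3 UMIs there are worth 20.1 CPM, above their mean granule levels of 14.3 and 11.6 CPM, so a difference was not detectable. Hoxc10 and Hoxc12 had 2 and 3 muscle-like UMIs and log2 fold changes of -0.47 and -0.45, which turned sign under other settings.

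Muscle-like cells were also set against cells outside the lineage, of which 3 genes had enough UMIs. Of these, 2 were higher and 0 lower, against 3.49% higher and 8.97% lower over 11363 genes. None was lower at an unadjusted p under 0.05 or by DESeq2, which called 1 higher. A gene with almost no UMI outside the lineage passed the filter only through the muscle-like cells, so this count is given as a description. The called genes were Hoxd10 and Hoxd3, and both passed the filter in that way. Hoxd10 had 0, 1 and 9 UMIs in the muscle-like cells of mice 1, 2 and 3, 6 of them in 1 cell, and 0 outside the lineage, and its adjusted p by DESeq2 was 0.256. Hoxd3 had 2, 1 and 8 UMIs in muscle-like cells, or 49.2, 42.9 and 93.9 CPM, and 5.58, 6.62 and 0 CPM outside the lineage. The values of Hoxd3 did not overlap, and those of Hoxd10 overlapped through mouse 1. Without mouse 3 none of the 12 genes had enough UMIs to be tested in this comparison.

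HoxD UMIs were in 4 of 28, 3 of 23 and 9 of 30 muscle-like cells, which is 14.3%, 13.0% and 30%, against 3.05%, 3.65% and 7.03% of the granule lineage and 1.40%, 0.633% and 0% of cells outside it. The muscle-like cells were deeper, with a median of 1312 UMIs per cell and 2620 in mouse 3. Thinned to 500 UMIs the shares were 0%, 8.70% and 10% against 1.63%, 1.40% and 2.14% in the granule lineage, so mouse 1 no longer showed the difference. One cell of mouse 3 with 4617 UMIs held 12 of the 35 HoxD UMIs. Without the highest cell of each mouse the lowest summed HoxD level, 79.4 CPM, lay above the highest value of the whole granule lineage, 51.6 CPM, and below the 86.3 CPM of differentiating cells in mouse 3. The 15 markers of differentiating CGNPs summed to 590 to 822 CPM in muscle-like cells and to 10606 to 12348 CPM in differentiating cells, and the 18 myoid markers to 105 to 278 CPM in the granule lineage and 26015 to 49621 CPM in muscle-like cells.

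By paralog number, the HoxC and HoxD genes of group 9 had the highest level in differentiating cells, 274 CPM ± 41.8 (SD, n = 3), and group 10 the lowest, 14.3 CPM ± 1.72. In HoxA and HoxB, group 9 was also high (415 CPM ± 90.6), and group 10 was not low (154 CPM ± 40.7). In muscle-like cells group 9 had 74.1 CPM ± 31.4, group 10 had 67.7 CPM ± 60.7 and group 3 had 62.0 CPM ± 27.8, values within their spread of each other. The group 3 genes of HoxA and HoxB had no UMI in muscle-like cells, whereas Hoxd3 had 11. Levels are of genes of different length, read at the 3′ end.

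HoxA and HoxB genes were tested in the same way. In the granule lineage against cells outside it 6 of 8 tested HoxA genes and 7 of 9 HoxB genes were higher, against 2.91% of all genes, with Hoxa7 (211 CPM ± 14.5), Hoxa9 (187 CPM ± 47.6) and Hoxb8 (121 CPM ± 10.3) the highest. Against muscle-like cells 4 of 8 and 2 of 9 were higher in the granule lineage, where 6.84% of all genes were, and 0 were lower by edgeR, with 0 lower at an unadjusted p under 0.05 and 0 by DESeq2. In differentiating against proliferating cells 8 of 8 and 7 of 9 were higher, against 7.17% of all genes. Many of these genes passed the filter only through the group where they were high, so the counts are descriptions. The gene clusters were not tested against each other.

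Of the TALE homeodomain cofactors, which bind DNA together with HOX proteins, 2 of 9 tested were higher in the granule lineage than outside it by edgeR, where 2.91% of all genes were, and 0 of 9 by DESeq2. They were Meis1, at 133 against 69.4 CPM (log2 fold change 0.91, SE 0.28, adjusted p = 0.0421), and Meis2, at 25.8 against 7.90 CPM (1.87, SE 0.58, adjusted p = 0.0442). In differentiating over proliferating cells, Meis1 and Meis3 rose by edgeR, 2 of 8 tested, against 7.17% of all genes, and DESeq2 called 1 of 7. No cofactor passed in the comparisons with muscle-like cells, where 2 and 1 had an unadjusted p under 0.05, and DESeq2 called 0.

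Of the PRC2 genes, 1 of 10 tested was lower in the granule lineage than outside it by edgeR, which was Eed. Over all genes 7.22% were lower, so this count is near the background, and DESeq2 called 0 of 10. In differentiating against proliferating cells 3 of 10 fell, Ezh2 (348 against 613 CPM), Rbbp7 (155 against 422 CPM) and Suz12 (109 against 216 CPM), against 8.18% of all genes, and DESeq2 called 2 of 9 lower. Ezh2, the methyltransferase subunit, was also lower in muscle-like cells, at 171 CPM against 513 CPM in the granule lineage (adjusted p = 0.000162), which made 1 of 10 tested, against 6.84% of all genes. Ezh2 is known to be higher in dividing cells, and its part in the Hox levels was not tested.

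Genes next to the clusters were also tested. Of 5 flanking genes tested (Lnp and Mtx2 beside HoxD, Smug1, Cbx5 and Calcoco1 beside HoxC), 0 were called in the granule lineage against cells outside it by edgeR, with 1 at an unadjusted p under 0.05, and 0 by DESeq2. In differentiating over proliferating cells Calcoco1, an adaptor protein gene, rose from 19.7 to 59.9 CPM and Cbx5, which encodes a heterochromatin protein, fell from 810 to 450 CPM by edgeR, against 7.17% of all genes higher and 8.18% lower. DESeq2 called 0 of the 5 higher and 1 lower. None was called between the granule lineage and muscle-like cells by either tool, where 0 had an unadjusted p under 0.05. Between muscle-like cells and cells outside the lineage edgeR called none, with 1 at an unadjusted p under 0.05. That was Cbx5 (999 against 495 CPM, adjusted p = 0.0510), and DESeq2 called 1 gene of the list higher.

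The genes outside the Hox family whose pattern over the 11 named cell types was most like the summed HoxC and HoxD level were Tlx3, Stk40, Vax2, Scg2 and Cacna2d1, with Pearson's r of 0.91, 0.90, 0.90, 0.90 and 0.90 among 8489 genes with at least 50 UMIs. This is a correlation of log2(CPM + 10) over cell types that share libraries and differ in depth. Tlx3 and Vax2 are homeobox genes themselves, and had 36.7 and 39.0 CPM in differentiating cells, as the geometric mean over mice after adding 10 CPM.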

How the data were processed

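The members and gene lists were chosen with earlier results of these data known. Per barcode and gene, the tables deposited by the authors held UMI counts with no normalization applied; the submitters' processing notes name STAR and mm10, versions not given in the sources used here. Barcodes with at least 500 UMIs, 200 genes and at most 10% mitochondrial UMIs were kept, up to 4 SD above the median UMIs and genes of their mouse; doublets were treated only by these upper limits. Cells were clustered with Seurat 5.3.0 (sctransform 0.4.2, 3000 variable genes, 15 principal components, resolution 0.8) without the 32 rows whose symbols start with Hox. Clusters were named from markers by a rule set after the clusters were seen: at least 3 markers of a type, each in at least 10% of cells and at least 2 times as high as in other cells after 20 CPM was added to both. The type also had to have more such markers than any other type. No other type could have more of its markers among the 10 leading genes of the cluster. In that last step proliferating and differentiating types were not set against each other. The names are rebuilt and may differ from those of the study.

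UMIs were summed per mouse and cell group. Genes with at least 10 UMIs over the 6 sums of a comparison were tested with edgeR 4.0.16 (TMM, quasi-likelihood F test, two-sided, Benjamini-Hochberg over all genes tested, threshold 0.05); the SE is the log2 fold change over the square root of F. DESeq2 1.42.0 was an alternative. The fits were tested on simulated data. Both sums of a mouse come from 1 animal and library, and their deviations from group means correlated across genes by 0.0641 to 0.366, so a block for the mouse was fitted as an alternative. Named were all members, the 2 to 4 highest genes of each list, and the 5 genes most alike in pattern. CPM is per 1000000 UMIs. A floor is 3 UMIs over a group, or 3 cells for a share.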

Additional observations from a re-analysis of the deposited data

Results flagged for a closer look

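The cluster of 177 cells that carried no cell type name was in neither group of the tests in the report, except where it was counted as differentiating as an alternative. In it 10 of the 12 genes had more than 3 UMIs and a mean level above that of cells outside the Atoh1 lineage. The mean over 3 mice was 240 CPM for Hoxc9, 132 CPM for Hoxc13, 72.1 CPM for Hoxc12, 38.1 CPM for Hoxc11 and 36.7 CPM for Hoxc8. It was 31.1 CPM for Hoxd3, 15.95 CPM for Hoxc10, 14.5 CPM for Hoxc4, 8.70 CPM for Hoxc6 and 5.80 CPM for Hoxd9. Hoxd8 had 3 UMIs and Hoxd10 had 0. Hoxc13 stood at 112, 176 and 109 CPM in mice 1, 2 and 3, above each value of differentiating CGNP/CGN-like cells (22.5 to 36.2 CPM), and Hoxc9 at 291, 176 and 252 CPM overlapped them. All HoxC genes together had 6 UMIs in the mouse 2 cells of this cluster, so the mouse 2 values rest on few counts. Hoxc4, Hoxc6, Hoxc10 and Hoxd9 had UMIs in mouse 3 alone, which gave 124 of the cells, and mouse 2 gave 10. These differences were not tested. The cluster was marked by Syt4 (494 CPM, against 64.2 CPM in differentiating cells) and Snhg11 (784 against 94.7 CPM), and its cells were deeper, with a median of 1438 UMIs.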

How the results depend on the processing

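Of 412 alternative values of single genes, 340 kept direction and side of the threshold, 35 newly passed it, 28 no longer passed it and 9 changed direction. For the granule lineage against cells outside it, the number of HoxC and HoxD genes called was 2. It was 8 with a replicate block for the mouse, with clusters at resolution 0.4 or 1.2, or with the unnamed cluster counted as differentiating, 6 with no filter on low counts, 4 with no upper limit on cell depth, and 1 to 2 when 1 mouse was left out. Against muscle-like cells the number was 3. It was 4 with no upper limit on cell depth, where Hoxd8 and Hoxd9 were called and Hoxd3 was not, 0 with filterByExpr, 2 with the replicate block, 2 without the muscle-like cell with the most HoxD UMIs, an alternative chosen after seeing the data, and 1 to 2 when 1 mouse was left out. For muscle-like cells against cells outside the lineage it was 2. It was 0 with filterByExpr, which left 0 members to test, 1 with DESeq2, with at least 1000 UMIs per cell or without that muscle-like cell, 4 with no filter or no upper limit, and 0 to 2 when 1 mouse was left out. For differentiating against proliferating cells it was 7, also with the replicate block. It was 2 with DESeq2, 1 with filterByExpr, which left 1 member to test, 3 with at least 1000 UMIs per cell, and 3 to 6 when 1 mouse was left out. DESeq2 gave no adjusted p for 2, 5, 1 and 6 members in these 4 comparisons.

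Directions changed for genes that were not called. Between the granule lineage and cells outside it, Hoxc13 had a log2 fold change of -0.53 with at least 1000 UMIs per cell. Against muscle-like cells, Hoxc10 ran from -0.77 to 0.031 when 1 mouse was left out and stood at 0.10 with the unnamed cluster counted as differentiating, and Hoxc12 ran from -0.92 to 0.45 when 1 mouse was left out and stood at 0.13 at resolution 0.4, 0.13 at resolution 1.2 and 0.24 with the unnamed cluster counted as differentiating. Between differentiating and proliferating cells, Hoxd9 stood at -0.74 with at least 1000 UMIs per cell and -0.33 at resolution 0.4. Shares of cells with a UMI moved by more than 1 SD in 13 of 36 values after thinning to 500 UMIs and in 9 of 36 with at least 1000 UMIs per cell. The causes were not tested. With 3 mice and few UMIs per gene, differences below the size of these errors were not detectable at this depth.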
